A study of Mus musculus with 48 samples.

Results

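The 10 genes described here encode glutathione S-transferases: Gsta1, Gsta2, Gsta3 and Gsta4 of the alpha class, Gstm1 and Gstm2 of the mu class, Gstp1 of the pi class, Gsto1 of the omega class, Gstt1 of the theta class, and Mgst1, the microsomal enzyme. They are 10 of 20738 genes named on the array, found by symbol in the platform's annotation, and where a gene had several features the brightest on average over all 48 arrays stands for it. The cells were mouse alveolar epithelial type II cells (AECII), which make surfactant, and pulmonary arterial smooth muscle cells (PASMC), both isolated from C57Bl/6J mice. The series names 8 mice, and each of its 6 groups has 8 single-colour arrays. For each cell type the groups were cells given an extract of electronic cigarette vapour (ECVE, at 15% for 24 h) prepared from nicotine-free e-liquid (0 mg/ml), cells given the extract of an e-liquid containing nicotine at 18 mg/ml, and controls. The label of the controls reads "room air" and that of the extract groups "smoke". All were cultured at ambient oxygen, AECII in medium with 10% serum and given the extract 24 h after isolation, PASMC, whose isolation used iron particles, with 15% serum and passaged first. The labels do not say which arrays came from the same mouse, so p-values measure the spread between arrays and may rest in part on shared animals.

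Glutathione S-transferases join the tripeptide glutathione to reactive, electrophilic molecules, which are then exported and broken down as conjugates. The alpha class is known for handling products of lipid peroxidation, and several genes of the family are textbook targets of the transcription factor NRF2 (Nfe2l2), which binds antioxidant response elements, and of the aryl hydrocarbon receptor. In lung they are known for the metabolism of inhaled smoke constituents. The membrane-bound Mgst1 belongs to a separate protein family, the MAPEG proteins, and also reduces lipid hydroperoxides.

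By RefSeq on build GRCm38.p6, 3 of the alpha genes lie together on chromosome 9, Gsta4 at chr9:78191966-78209349, Gsta1 at chr9:78230669-78242683 and Gsta2 at chr9:78331018-78347192, while Gsta3 lies at chr1:21240565-21265575. Gstm2 (chr3:107981702-107986420) and Gstm1 (chr3:108012250-108017973) are neighbours. Gstp1 is at chr19:4035411-4037912, Gsto1 at chr19:47854973-47864790, Gstt1 at chr10:75783813-75798584 and Mgst1 at chr6:138140527-138156755. The position of each probe within its gene was not used here. Gsta1, Gsta2 and the neighbouring Gm10639, like Gstp1 and Gstp2, are close copies, so signal shared between such copies cannot be told apart.

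Windows of 250 bases before and 50 bases after each start were in RefSeq's promoter table for 9 of the 10 genes (11 windows). Gsta4 is named only. The cores searched on both strands were TGAC, any 3 bases, then GC for the antioxidant response element, and GCGTG for the element of the aryl hydrocarbon receptor. Gsta3 and 1 of the 2 windows of Mgst1 each had 1 match of the first, which 12.4% of all 32851 windows hold. Gsta1, Gsta2, Gstp1 and both windows of Gstm1 had 1 match each of the second, which 32.4% of all windows hold. The windows of Gstm1 overlap, and their match is the same site. The other windows had no match of either core. A match describes these letters only. The windows of 4 genes are shown, Gsta1 and Gsta2 because they were the alpha genes near background in PASMC, and Gsta3 and Mgst1 because they moved together between AECII arrays. The capitals mark the matched core, which in Mgst1 is on the opposite strand.
Gsta1, chr9:78230419-78230718, plus strand: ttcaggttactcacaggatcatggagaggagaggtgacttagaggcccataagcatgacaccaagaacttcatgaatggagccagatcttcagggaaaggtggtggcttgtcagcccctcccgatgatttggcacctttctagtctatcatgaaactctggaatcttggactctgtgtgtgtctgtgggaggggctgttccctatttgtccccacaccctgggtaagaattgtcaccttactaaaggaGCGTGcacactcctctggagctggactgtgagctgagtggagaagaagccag
Gsta2, chr9:78347096-78347395, minus strand: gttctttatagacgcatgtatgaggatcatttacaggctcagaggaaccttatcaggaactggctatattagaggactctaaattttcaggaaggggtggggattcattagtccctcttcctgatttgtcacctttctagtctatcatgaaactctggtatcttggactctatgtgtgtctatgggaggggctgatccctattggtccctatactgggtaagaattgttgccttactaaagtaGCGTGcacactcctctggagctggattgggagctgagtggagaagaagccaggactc
Gsta3, chr1:21240335-21240634, plus strand: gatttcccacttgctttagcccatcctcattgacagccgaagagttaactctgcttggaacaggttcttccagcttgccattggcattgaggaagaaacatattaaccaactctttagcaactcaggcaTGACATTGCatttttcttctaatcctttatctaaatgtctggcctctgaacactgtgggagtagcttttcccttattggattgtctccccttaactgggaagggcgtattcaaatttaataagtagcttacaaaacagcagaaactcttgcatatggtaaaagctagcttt
Mgst1, chr6:138140277-138140576, plus strand: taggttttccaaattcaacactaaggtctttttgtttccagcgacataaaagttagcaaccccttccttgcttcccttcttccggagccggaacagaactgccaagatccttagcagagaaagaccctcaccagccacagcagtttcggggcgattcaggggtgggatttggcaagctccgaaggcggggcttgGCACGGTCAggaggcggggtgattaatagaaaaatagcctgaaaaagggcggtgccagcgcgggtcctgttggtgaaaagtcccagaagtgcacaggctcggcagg
Counted with the start as 0, the core began at -2 in Gsta1, at -7 in Gsta2, at -121 in Gsta3 and at -56 in Mgst1. In a global alignment the windows of Gsta1 and Gsta2 were identical at 239 of 313 positions (76.4%), and those of Gsta1 and Gm10639 at 280 of 315 (88.9%). The Gm10639 window had no match of GCGTG.

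Markers were checked before the genes were compared. The surfactant gene Sftpc was at 13.8 to 14.9 log2 on all AECII arrays, and the smooth muscle actin gene Acta2 at 14.3 to 15.5 on all PASMC arrays. Of 11 type II markers tested in controls, 10 were called higher in AECII than in PASMC and 1 lower (limma). All 12 smooth muscle markers were called lower in AECII. Neither culture held markers of its own type alone. AECII arrays also had the club cell gene Scgb1a1 at 15.58 to 15.89, near the arrays' highest value of 15.89, and mesothelial markers at a mean of 9.32 to 10.5 over 6 genes. PASMC arrays had fibroblast markers at a mean of 8.84 to 11.19 over 10 genes, beside a smooth muscle mean of 9.49 to 10.96 over 12. In PASMC the epithelial marker mean over 12 genes fell into 2 sets, 9 arrays at 5.04 to 6.69 and 15 arrays at 3.11 to 4.05, each set holding equal numbers of the 3 conditions (3 and 5 arrays of each). Sftpc reached 11.8 in PASMC, and its lowest value there was 1.72. All arrays had been brought to one distribution with a median of 2.97 to 2.98, and values near that median are called near background.

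The clearest contrast in the family was between the cell types. The first question was how much of each transferase AECII carried relative to PASMC in the untreated state. All 4 alpha genes were far higher in AECII, Gsto1 was moderately higher, Gstm2, Gstt1 and Gstp1 were lower, and Gstm1 and Mgst1 did not pass the test. That made 5 of 10 members called higher and 3 called lower at an adjusted p under 0.05 (limma), where 59.2% of the 14775 genes tested were called, 27.9% higher and 31.3% lower. The members' median difference was 0.48 log2 against -0.04 for all genes tested. In bulk cultures, fewer cells of a type and less RNA per cell cannot be told apart.

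Gsta1, an alpha-class enzyme, averaged 12.60 ± 0.26 log2 in AECII controls and 3.42 ± 0.92 in PASMC controls (SD, n = 8 each). The difference was 9.18 (SE 0.29, adjusted p = 7.24e-29). Gsta2 averaged 10.88 ± 0.52 in AECII controls and 2.62 ± 0.68 in PASMC controls, a difference of 8.25 (SE 0.27, adjusted p = 1.57e-28). The PASMC values of both genes were near background, so the size of each difference is bounded by background and not by a measured level. Both genes spread widely in PASMC, Gsta1 over 2.22 to 4.75 and Gsta2 over 1.65 to 3.61 on 24 arrays, and no array of one cell type reached the other's range.

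Gsta3 and Gsta4 were above background in PASMC and differed less. Gsta3, known in mice for detoxifying the epoxide of aflatoxin, averaged 11.88 ± 0.28 in AECII controls and 7.08 ± 0.37 in PASMC controls, which is 27.9-fold (95% interval 21.2 to 36.7). Gsta4, which conjugates 4-hydroxynonenal from oxidised lipids, averaged 9.92 ± 0.30 in AECII controls and 5.42 ± 0.36 in PASMC controls, 22.5-fold (17.4 to 29.1). All 10 features of Gsta4 gave this direction, with differences of 4.17 to 4.49 log2, and both features of Gsta3 did, at 4.55 and 4.80. Whether features of a gene repeat the same probe was not checked, so they are not counted as separate evidence.

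The remaining classes showed smaller differences in both directions. Gsto1, which also reduces dehydroascorbate, was 0.60 log2 higher in AECII controls (SE 0.13, adjusted p = 0.000128). Gstm2, a mu-class enzyme, averaged 10.13 ± 0.11 in AECII controls and 11.32 ± 0.46 in PASMC controls, a difference of -1.19 (SE 0.16, adjusted p = 2.18e-08). Gstt1, whose class acts on small halogenated compounds, averaged 6.93 ± 0.34 in AECII controls and 8.13 ± 0.88 in PASMC controls, a difference of -1.20 (SE 0.31, adjusted p = 0.000789). Gstp1 differed by -0.50 (SE 0.12, adjusted p = 0.000599). Arrays of the control groups did not overlap for 6 members, Gsta1, Gsta2, Gsta3, Gsta4, Gsto1 and Gstm2, and 28.0% of all genes tested were separated in this way.

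Under both extracts the order of the cell types was kept, with 3 members near the threshold. With the 0 mg/ml extract 6 members were called higher and 2 lower, where 58.7% of genes were called (27.9% higher, 30.9% lower), and with the 18 mg/ml extract 7 and 2, where 58.3% were called (28.0% higher, 30.3% lower). Arrays did not overlap for 5 members with either extract, where 26.7% of genes (0 mg/ml) and 27.3% (18 mg/ml) were separated. Mgst1 differed between AECII and PASMC by 0.50 with the 0 mg/ml extract (adjusted p = 0.0461), by 0.74 with the 18 mg/ml extract (adjusted p = 0.00329) and by 0.17 in controls (adjusted p = 0.518). Gstm1 differed by 0.46, 0.75 and 0.36 in the same 3 conditions (adjusted p = 0.0647, 0.00253 and 0.149). Gstp1 differed by -0.21, -0.24 and -0.50 (adjusted p = 0.153, 0.0918 and 0.000599). Whether these gaps differ between conditions is the test of the responses given further on, which none of the 3 genes passed. The panel of all 10 genes by group shows both the alpha genes' separation and the spread of Gstt1, Gstm2 and Mgst1 in PASMC.

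**Figure D1:**
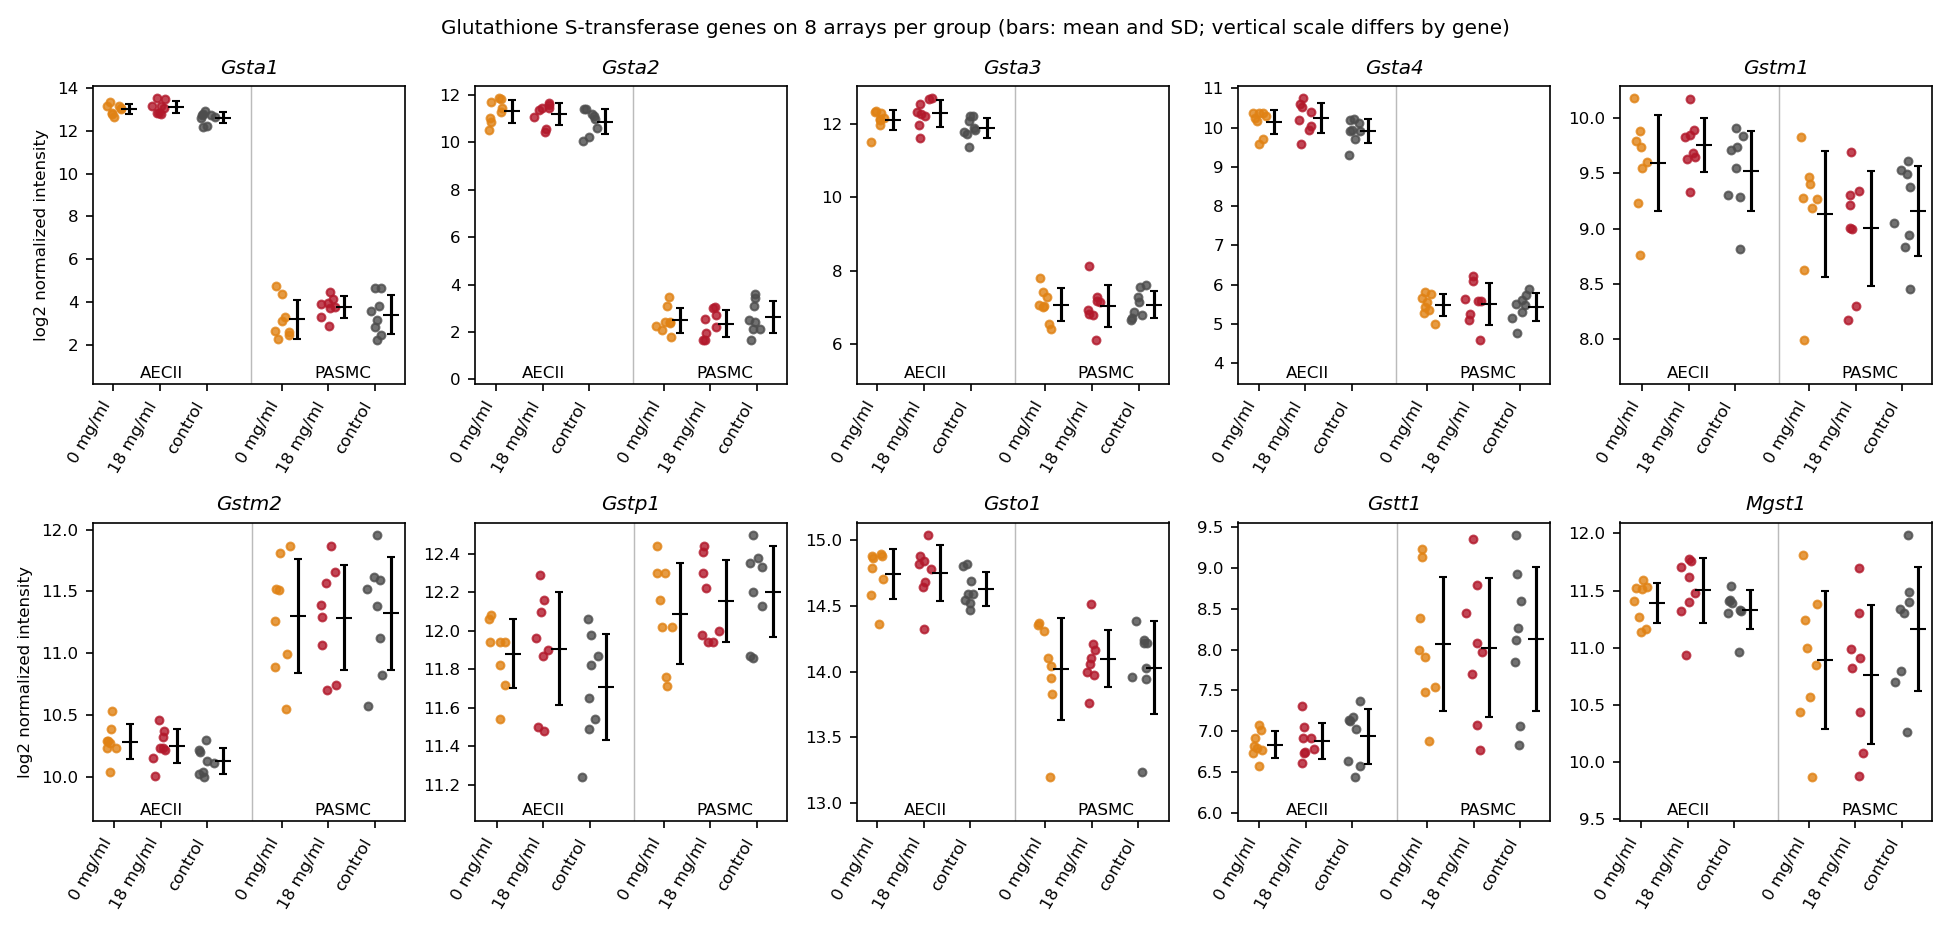
Log2 normalized intensity of the 10 genes on each of 48 arrays, with 1 panel per gene, 1 point per array and the mean and SD of each group of 8 beside the points (AECII left, PASMC right, each with 0 mg/ml extract, 18 mg/ml extract and control). The vertical scales differ between genes. The 4 alpha genes separate the cell types on every array, while Gstt1 spans 6.77 to 9.41 within PASMC.

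The next question was whether the extracts moved these genes in AECII. No member passed the test in any AECII comparison, and neither did any other gene, so 0.0% of the 14477 genes tested were called in each of the 4 comparisons (limma; 480 genes had an unadjusted p under 0.05 for the 0 mg/ml extract against control, 341 for the 18 mg/ml extract against control, 447 between the extracts and 409 for both extracts pooled). The estimates of the family lay mostly above 0. With the 0 mg/ml extract 9 of 10 members had a positive difference from control, where 53.0% of all genes did, and with the 18 mg/ml extract 9 of 10, where 54.8% did. The members' medians were 0.17 and 0.22 log2, against 0.01 for all genes in each comparison. Both comparisons use the same control arrays, and the members are not independent of each other. The members were also chosen with earlier results of these data known, so their sign counts are a description and not a test.

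Gsta1 had the most distinct difference of the family. Its lowest, median and highest values over 8 arrays were 12.66, 13.04 and 13.34 log2 with the 0 mg/ml extract, 12.76, 13.10 and 13.52 with the 18 mg/ml extract, and 12.18, 12.68 and 12.91 in controls. In each extract group all 8 arrays were above the control mean and 5 of 8 were above the highest control array, while the other 3 overlapped the controls.

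The fitted Gsta1 difference was 0.40 log2 for the 0 mg/ml extract, 1.32-fold (95% interval 1.10 to 1.59, unadjusted p = 0.00468, adjusted p = 0.999 by limma). For the 18 mg/ml extract it was 0.50, 1.41-fold (1.17 to 1.70, unadjusted p = 0.000778, adjusted p = 1 by limma), rank 4 of 14477 by p. For both extracts pooled it was 0.45 (SE 0.11, unadjusted p = 0.000504, adjusted p = 1 by limma), rank 2 of 14477. Exact permutation of the 16 arrays, two-sided, gave p = 0.00497 for the 0 mg/ml extract and 0.00186 for the 18 mg/ml extract. The 2 extracts themselves differed in Gsta1 by 0.09 (interval -0.17 to 0.36), so a difference beyond 0.36 either way lay outside the interval. The AECII marker mean had group medians of 9.46 and 9.38 with the 0 and 18 mg/ml extracts and 9.47 in controls, and with the epithelial marker mean as a covariate the Gsta1 differences were 0.41 and 0.50.

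The other alpha genes had estimates of like size with wider spread. Gsta2 differed from control by 0.44 with the 0 mg/ml extract (interval -0.05 to 0.93) and by 0.32 with the 18 mg/ml extract (-0.17 to 0.81). The Gsta2 arrays numbered 7 and 8 were the lowest in every AECII group, at 10.87 and 10.52 with the 0 mg/ml extract, 10.42 and 10.55 with the 18 mg/ml extract, and 10.05 and 10.25 in controls. This was seen after the values were inspected, and the numbers did not pair the arrays over all genes. Gsta3 gave 11.61, 12.28 and 12.69 (lowest, median, highest) with the 18 mg/ml extract and 11.37, 11.86 and 12.20 in controls. Of the 8 extract arrays 6 were above all controls, the difference was 0.40 (interval 0.09 to 0.72, unadjusted p = 0.0135, adjusted p = 1 by limma), and exact permutation of the 16 arrays gave p = 0.0274. With the 0 mg/ml extract the Gsta3 difference was 0.22 (-0.09 to 0.53). Gsta4 differed by 0.22 and 0.33 with the 0 and 18 mg/ml extracts, and the lower interval bound was below 0 in both.

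Outside the alpha class the estimates were smaller. Gstm2 differed by 0.16 with the 0 mg/ml extract (interval 0.005 to 0.31, unadjusted p = 0.0438, adjusted p = 0.999 by limma) and by 0.12 with the 18 mg/ml extract. In Gstm2 7 of 8 arrays of each extract group lay above the control mean. Gstp1 differed by 0.18 and 0.20, Gsto1 by 0.11 and 0.12, Gstm1 by 0.07 and 0.23 and Mgst1 by 0.06 and 0.17, and every one of these intervals included 0. Gstt1 was the 1 member with negative estimates, -0.10 and -0.05. At an unadjusted p under 0.05 the family had 2 of 10 members in each extract comparison, where 3.32% of all genes (0 mg/ml) and 2.36% (18 mg/ml) had one. Between the 2 extracts none of the 10 had one, where 3.09% of all genes did, and for both extracts pooled 3 did (Gsta1, Gsta3 and Gstm2), where 2.83% did. Control array 6 was the lowest of its group for Gsta1, Gsta3, Gsta4, Gstm1, Gstp1 and Mgst1. Without it the 18 mg/ml difference was 0.44 for Gsta1 and 0.33 for Gsta3, and the 0 mg/ml difference of Gstm1 turned to -0.03.

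**Figure D2:**
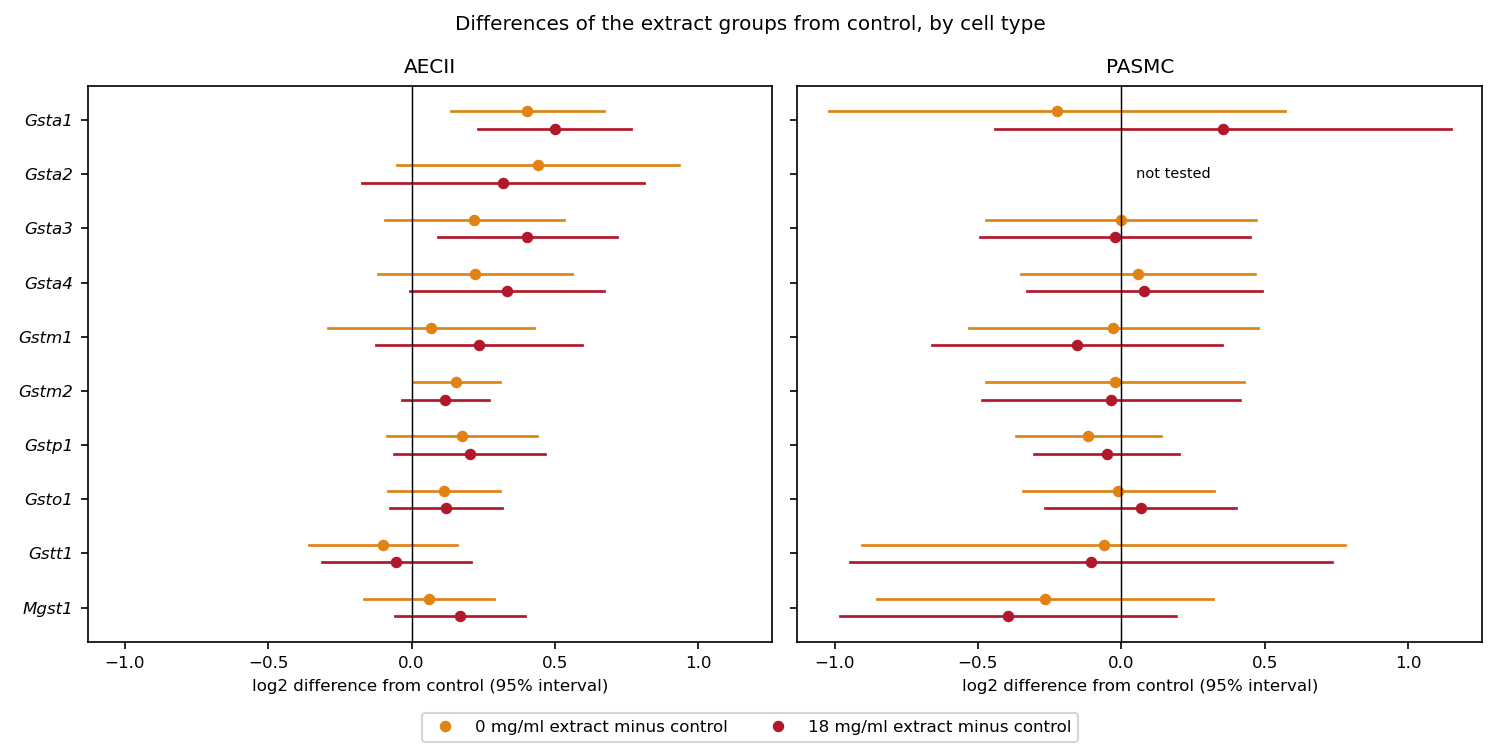
Log2 differences of each extract group from control with 95% intervals from limma, for AECII (left) and PASMC (right), on 8 arrays per group. In AECII 9 of 10 estimates are positive for each extract and the unadjusted intervals exclude 0 for Gsta1 with both extracts, Gsta3 with 18 mg/ml and Gstm2 with 0 mg/ml, while every PASMC interval includes 0 and Gsta2 was not tested there.

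In PASMC 9 of the 10 members were bright enough to be tested, and none was called or had an unadjusted p under 0.05 in any of the 4 comparisons. Over all 14545 genes 0.0% were called with the 0 mg/ml extract and between the extracts, 0.0275% with the 18 mg/ml extract (4 genes, all lower) and 0.0206% with both pooled by limma. An unadjusted p under 0.05 was reached by 2.76% of genes with the 0 mg/ml extract, 4.05% with the 18 mg/ml extract, 1.94% between the extracts and 4.08% with both pooled, which is 402, 589, 282 and 594 genes. Of the 9 members 1 had a positive estimate with the 0 mg/ml extract and 3 with the 18 mg/ml extract. The estimates ran between -0.27 and 0.06 with the 0 mg/ml extract and between -0.40 and 0.35 with the 18 mg/ml extract, the 0.35 being Gsta1 near background. The half-widths of the intervals were 0.25 to 0.84 log2.

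Mgst1 had the lowest estimate of the family in PASMC. Its lowest, median and highest values were 9.87, 10.92 and 11.81 with the 0 mg/ml extract, 9.88, 10.86 and 11.70 with the 18 mg/ml extract, and 10.26, 11.32 and 11.99 in controls. The groups overlapped over most of their range, and 6 of 8 arrays with the 18 mg/ml extract were below the control mean. The difference from control was -0.40 with the 18 mg/ml extract (interval -0.98 to 0.19, unadjusted p = 0.175, adjusted p = 1 by limma) and -0.27 with the 0 mg/ml extract (-0.85 to 0.32).

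The p of that estimate depended on how the differences between PASMC cultures were modelled. With 1 residual component as a covariate, an alternative added after the data were seen, Mgst1 kept the same -0.40 and its adjusted p was 0.0114 (limma). With 3 components it was 0.00797. These components are computed from deviations within groups, so they narrow the error and cannot change the difference, and they treat any shift of a group along a component as signal. They come from the same arrays, with Mgst1 among the genes used. A smaller p was thus built in for a gene that varies along them, and neither adjusted p is taken as a pass. With the epithelial marker mean as a covariate, the difference was -0.43 (unadjusted p = 0.00183, adjusted p = 0.328 by limma). Using only the PASMC arrays with Sftpc at or below 6 it was -0.46 (unadjusted p = 0.325).

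The responses were then compared between cell types, which asks whether an extract moved a gene differently in AECII and PASMC. No member and no other gene passed this test for either extract (0.0% of 14775 genes called by limma; 393 genes at an unadjusted p under 0.05 for the 0 mg/ml extract and 382 for the 18 mg/ml extract). The AECII minus PASMC response was positive for 9 of 10 members with the 0 mg/ml extract and for 10 of 10 with the 18 mg/ml extract, where 51.2% and 51.0% of all genes were positive. The limits given for the sign counts in AECII hold for these counts too. Mgst1 with the 18 mg/ml extract came nearest, at 0.57 (interval -0.06 to 1.19, unadjusted p = 0.0731). For Gsta1 the response differed by 0.63 and 0.14 with the 0 and 18 mg/ml extracts, and its PASMC values near background enter both.

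Arrays of one AECII group differed from each other in a coordinated way. Over the 24 AECII arrays, after each group's mean was removed, Gsta3, Gsta4, Gstp1 and Mgst1 varied together, with r between 0.87 and 0.93 in all 6 pairs. The pair Gsta4 and Mgst1 had Pearson's r = 0.93 and Spearman's rho = 0.90 (permutation p = 1e-05 for each, the smallest that 100000 permutations give, adjusted p = 7.5e-05 and 9e-05 over 45 pairs), and r = 0.90 without the 2 arrays farthest from the median of Gsta4. Of the 45 pairs 12 passed with a positive r and 0 with a negative one. How often pairs of other genes pass was not computed, so this count is not shown to be particular to the family. The 24 arrays may come from fewer animals, which would make these p-values too small. Within single groups of 8 arrays the r of Gsta4 and Mgst1 was 0.90 with the 0 mg/ml extract, 0.97 with the 18 mg/ml extract and 0.91 in controls (exact permutation p = 0.00248, 0.000149 and 0.00496, adjusted p = 0.00558, 0.00246 and 0.00812 over 18 relations), with rho of 0.74, 0.98 and 0.69.

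Gsta1 was less closely tied to those 4 genes than they were to each other, though no test compared these correlations. It went with Gsta2 at r = 0.55 and rho = 0.53 (permutation p = 0.00936 and 0.0116, adjusted p = 0.0438 and 0.0653), at r = 0.48 with both Gsta4 and Mgst1 (adjusted p = 0.0804 each), at 0.40 with Gstp1 (0.167) and at 0.35 with Gsta3 (0.231). Without the 2 arrays farthest from its median r was 0.47 with Gsta2, 0.50 with Gsta4 and 0.52 with Mgst1, so Gsta2 was then not its closest partner. Gsta3, Gsta4, Gstp1 and Mgst1 went against the epithelial marker mean, at r of -0.77, -0.71, -0.72 and -0.69 (permutation p = 5e-05, 0.00042, 0.00018 and 0.00051). They also went against the airway marker mean, at r of -0.65, -0.77, -0.67 and -0.69 (permutation p = 0.00059, 4e-05, 0.00023 and 5e-05), with rho of -0.60, -0.79, -0.69 and -0.75 and adjusted p of 0.00524, 0.00133, 0.00368 and 0.00133. With the type II marker mean the same 4 genes had r of only 0.17, 0.01, -0.01 and 0.08 (permutation test, adjusted p between 0.77 and 0.992). Gsta3, Gsta4 and Mgst1 went with the mesothelial mean at 0.69, 0.63 and 0.61. The adjusted p of the 7 epithelial and mesothelial relations lay between 0.00133 and 0.0183 over 80, and rho between -0.64 and -0.56 or 0.56 and 0.60. The adjusted p of rho missed 0.05 for Mgst1 against both means (0.0733 and 0.0588). The median mesothelial mean was 9.71 with the 0 mg/ml extract, 9.86 with the 18 mg/ml extract and 9.72 in controls, that of the airway mean 6.77, 6.70 and 6.72, and their part in the extract differences was not tested. With the epithelial marker mean as a covariate Gsta3 differed by 0.42 between the 18 mg/ml extract and control (unadjusted p = 0.000491, adjusted p = 1 by limma).

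**Figure D3:**
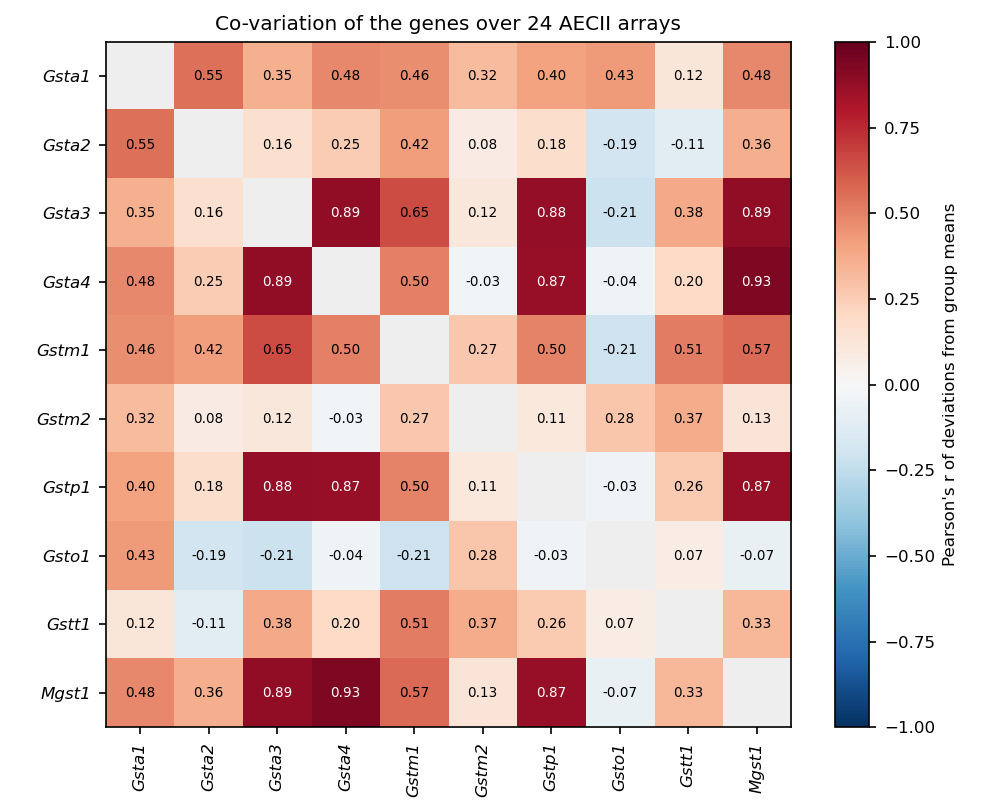
Pearson's r of the deviations from group means for each pair of the 10 genes over 24 AECII arrays, with the value printed in each cell and the diagonal left empty. Gsta3, Gsta4, Gstp1 and Mgst1 form a block of r between 0.87 and 0.93, and Gsta1 has its highest r, 0.55, with Gsta2.

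The genes most like each member in AECII, by Pearson's r over the same 24 arrays and 14465 genes searched, are given as a description. For Gsta1 they were Gm10639 (0.95), the neighbouring close copy, Aldh3a1 (0.84), an aldehyde dehydrogenase, and Heph (0.77), an iron-transport oxidase. For Gstm1 they were Ifi27 (0.83), Taldo1 (0.83) of the pentose phosphate pathway and Blvrb (0.82), a biliverdin reductase. For Gstp1 they were Meis1 (0.87), Txnrd1 (0.86), the thioredoxin reductase, and Fosl1 (0.85). For Mgst1 they were Gbe1 (0.93), the glycogen branching enzyme, Slpi (0.86) and Mgst2 (0.85). Gm10639 was at 13.46 ± 0.22 with the 0 mg/ml extract, 13.58 ± 0.28 with the 18 mg/ml extract and 13.16 ± 0.25 in controls, with differences of 0.30 (unadjusted p = 0.0236) and 0.42 (0.00265) that did not pass over all genes (adjusted p = 0.999 and 1 by limma).

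In PASMC a group of members that shared Mgst1 with the AECII block moved together. It followed the 2 sets of arrays that stood apart in the epithelial marker mean. Gstm2 was at 10.55 to 11.12 on the 9 arrays with the higher epithelial mean and at 11.26 to 11.96 on the other 15. Gstt1 was at 6.77 to 7.85 against 7.91 to 9.41, and Mgst1 at 9.87 to 10.80 against 10.82 to 11.99. None of the 3 genes overlapped between the sets, while the other 6 members tested did, and 2.46% of the 14545 genes tested did not overlap. The 3 genes were picked for this after their values were seen. A correlation among the 3 genes over all 24 arrays would mostly describe this gap and is not given. Gstp1, also of the AECII block, overlapped between the sets. Over the 24 arrays it went with Gstm2, Mgst1 and Gstt1 at r of 0.70, 0.69 and 0.58, which span the same gap and are a description only. Within the 15 arrays of the lower set Gstm2 and Mgst1 still went together at r = 0.85 and rho = 0.75 (permutation p = 0.0001 and 0.0017, adjusted p = 0.0007 over 14 relations), and r was 0.76 without the 2 arrays farthest from the median of Gstm2. Within the 9 arrays of the upper set r was 0.70 and rho 0.72 (permutation p = 0.0414 and 0.0376, adjusted p = 0.0644). The arrays of each set may come from fewer animals, which would make all p-values within the sets too small.

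The relation to the epithelial mean itself held in the lower set, at r of -0.76 for Gstm2, -0.69 for Gstt1 and -0.69 for Mgst1 (permutation p = 0.00101, 0.00402 and 0.00382, adjusted p = 0.00353, 0.00938 and 0.00938), with rho of -0.70, -0.61 and -0.58. In the upper set of 9 arrays no such relation passed, at r of -0.37, -0.02 and -0.39 (permutation p = 0.321, 0.966 and 0.295). Without the 2 arrays farthest from the median epithelial mean r was -0.642, -0.505 and -0.531 in the lower set. In the upper set it was then -0.411, -0.224 and -0.763. With 9 arrays the upper set cannot show that the relation was absent. Gsta1, near background in PASMC, ran the other way in the lower set (r = 0.65, rho = 0.56, permutation p = 0.00792 and 0.0321). Median marker means of the upper and lower sets were 5.89 and 3.71 for epithelium and 6.81 and 5.28 for type II cells. The median airway mean did not rise with them, at 3.49 and 3.56, but its range was 3.25 to 8.26 in the upper and 3.2 to 4.23 in the lower set. Medians were 3.92 and 3.07 for mesothelium, 10.54 and 9.90 for smooth muscle and 10.08 and 10.52 for fibroblasts. They were 6.86 and 5.20 for macrophages and leukocytes, and 4.73 and 3.99 for endothelium. Sftpc alone had medians of 10.26 and 3.28, with ranges that overlapped. Among the epithelial markers the keratins Krt18 and Krt8 had medians of 11.27 and 6.34 and of 9.58 and 4.77. Epcam was near background and overlapped, at 2.72 to 4.42 in the upper and 1.94 to 3.51 in the lower set. In each PASMC group 6 or 7 of the 12 epithelial markers had a group mean under 4. The part of other cells in these values was not tested.

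A single array in each PASMC group carried the extremes of several members at once. Array 4 with the 0 mg/ml extract, array 6 with the 18 mg/ml extract and control array 3 had the highest Mgst1 (11.81, 11.70 and 11.99), Gstm2 (11.87, 11.87 and 11.96) and Gstt1 (9.23, 9.36 and 9.41) of their groups, and the lowest Gsto1 (13.20, 13.76 and 13.24). Their epithelial means, 3.11, 3.17 and 3.25, were also the lowest. Over all genes tested, 5 such sets of 3 arrays, 1 array per condition, were each other's closest match in PASMC and 4 in AECII. In none of these sets did all 3 arrays carry the same number, and in 2 of the PASMC sets a pair of arrays did. All 9 arrays with the higher epithelial mean belonged to such sets, and no set mixed them with the other 15. The labels do not say that such arrays came from one mouse, so no test was built on them.

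**Figure D4:**
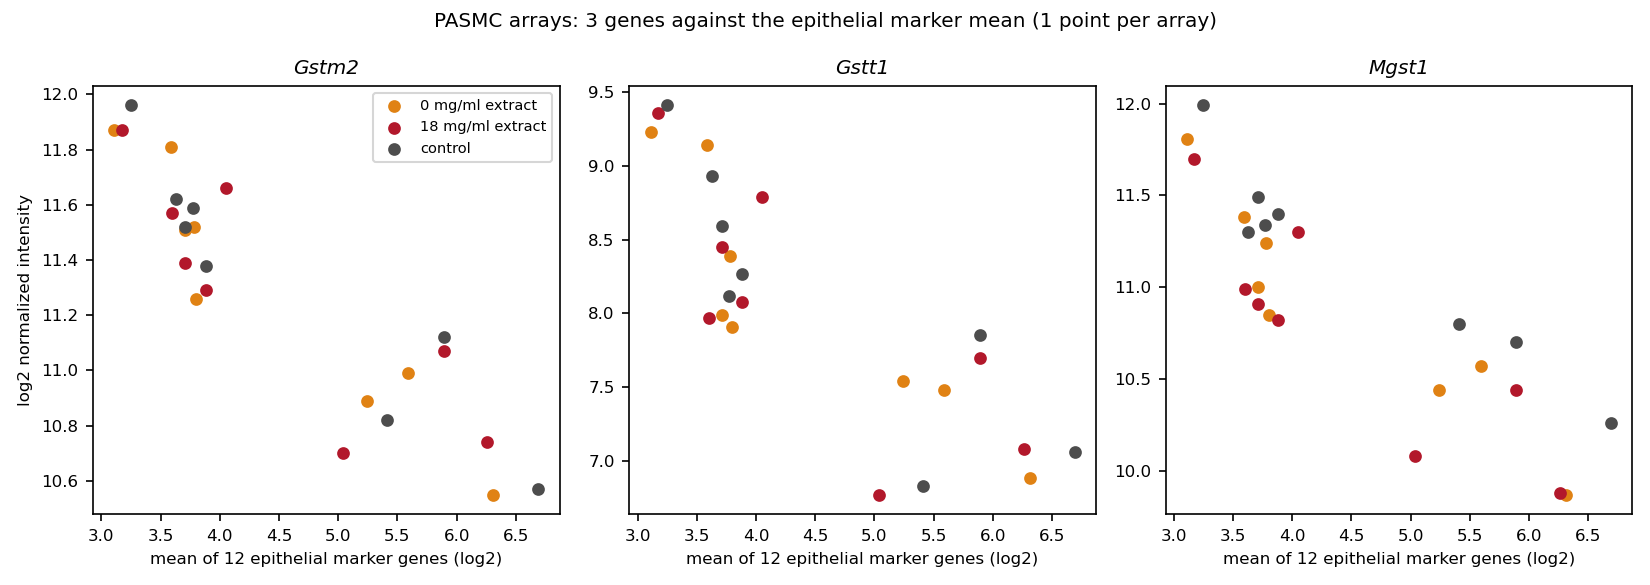
Log2 normalized intensity of Gstm2, Gstt1 and Mgst1 against the mean of 12 epithelial marker genes on 24 PASMC arrays, with 1 point per array coloured by condition. The 9 arrays with a marker mean of 5.04 to 6.69 lie below the other 15 for all 3 genes, and both sets hold all 3 conditions.

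The genes most like each member in PASMC were found over 24 arrays and 14529 genes, and their r is a description only. These r span both sets of arrays, and whether the genes share the gap between the sets was not tested. For Mgst1 they were Socs3, C1s1 and Fndc4 (0.98 each). For Gsta1 they were Vps37a (0.85), Pus7 (0.84) and Lrrc51 (0.83), for Gstm1 Epor (0.86), Stxbp2 (0.85) and Pla1a (0.84), and for Gstp1 Map2k5 (0.87), Cyb5r3 (0.86) and Ndufa7 (0.85). None of these was among the genes most like the same member in AECII.

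Of other transferase and MAPEG genes 18 of 20 on the array were bright enough to test. Their estimates were less one-sided in AECII than those of the members, but no test compared them. Members and lists were both chosen with earlier results known. In AECII 12 of 18 were positive with the 0 mg/ml extract and 8 of 18 with the 18 mg/ml extract, with medians of 0.06 and -0.01 and none called. The smallest p were those of Gm10639, given above, with Gsto2 at -0.24 (unadjusted p = 0.0338) for the 0 mg/ml extract and Gstt2 at -0.30 (0.05) for the 18 mg/ml extract. In PASMC 12 and 7 of 18 were positive and none was called, with Ltc4s, the leukotriene C4 synthase, at 0.46 and Gstm7 at -0.31 for the 0 mg/ml extract and Gstm3 at -0.29 and Gstm7 at -0.29 for the 18 mg/ml extract (unadjusted p = 0.23 to 0.368). Between the cell types in controls 4 were called higher in AECII and 4 lower. Gm10639 differed by 9.10, with a PASMC value of 4.07 ± 0.71, Mgst3 by 3.02, Gsto2 by 1.48 and Gstm5 by -1.97.

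Genes of glutathione synthesis and reduction leaned the same way as the members in AECII. All 19 on the array were tested and none was called, with 17 of 19 positive for the 0 mg/ml extract and 16 of 19 for the 18 mg/ml extract (medians 0.10 and 0.13). Gss, the glutathione synthetase, differed by 0.27 (unadjusted p = 0.0309) and 0.35 (0.00656), Gsr, the glutathione reductase, by 0.16 (0.0292) with the 0 mg/ml extract, and Gclm, a subunit of glutamate-cysteine ligase, by 0.37 (0.0471) with the 18 mg/ml extract. In PASMC 6 and 9 of 19 were positive, with Gclc, the other subunit, at -0.20 and Slc3a2 at -0.12 for the 0 mg/ml extract, and Glrx at 0.23 and Tkt at 0.11 for the 18 mg/ml extract. In controls 10 of 19 were called higher in AECII and 4 lower, with Gsr at 2.49, Me1 at 1.66, Pgd at 0.71 and Glrx2 at -0.89.

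Genes of export and breakdown of glutathione conjugates showed no call with either extract. Abcc3, an export pump, was at 9.30 ± 0.24 with the 0 mg/ml extract, 9.22 ± 0.33 with the 18 mg/ml extract and 8.90 ± 0.21 in AECII controls, with differences of 0.41 (unadjusted p = 0.00495) and 0.33 (0.0208). Ggt5 at -0.43 with the 0 mg/ml extract and Anpep at -0.29 with the 18 mg/ml extract followed, and 9 and 13 of 17 estimates were positive. In PASMC 6 and 9 of 15 were positive, with Acy1, an aminoacylase, at -0.29 and Anpep, an aminopeptidase, at -0.50 for the 0 mg/ml extract, and Anpep at -0.70 (unadjusted p = 0.0182) and Acy1 at -0.22 for the 18 mg/ml extract. In controls 5 of 16 were called higher in AECII and 8 lower, with Abcc3 at 3.67, Abcc5 at 2.17, Abcg2 at -1.23 and Ggt7 at -3.86, the last near background in AECII.

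Other textbook NRF2 targets and readouts of the aryl hydrocarbon receptor, 15 genes that all were tested, had 13 positive estimates in AECII with each extract and none called (medians 0.14 and 0.22). Cbr3, a carbonyl reductase, differed by 0.28 (unadjusted p = 0.0322) and 0.44 (0.0013), Srxn1, the sulfiredoxin, by 0.32 with the 0 mg/ml extract, and Ephx1, the microsomal epoxide hydrolase, by 0.31 (0.00887) with the 18 mg/ml extract. In PASMC 6 and 10 of 15 were positive, with Nqo1 at 0.19 and Hmox1 at -0.30 for the 0 mg/ml extract, and Fth1 at -0.11 and Nqo1 at 0.23 for the 18 mg/ml extract. In controls 7 of 15 were called higher in AECII and 6 lower, with Cyp1a1 at 4.67, Aldh3a1 at 3.71, Cbr3 at 0.89 and Txn1 at 0.51. Among those called lower, Hmox1, the inducible heme oxygenase, differed by -1.95 and Nqo1, a quinone reductase, by -0.76, both added after their values were seen.

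Regulators known to act on transferase genes showed even signs. Of 17 tested, 8 and 9 were positive in AECII and 6 and 8 in PASMC with the 0 and 18 mg/ml extracts, and none was called. The smallest p in AECII were those of Maff at 0.19 and Bach1 at 0.12 with the 0 mg/ml extract and of Cul3 at 0.21 and Maff at 0.15 with the 18 mg/ml extract. In PASMC they were those of Rxra at -0.22 and Cul3 at -0.21 with the 0 mg/ml extract, and of Maff at -0.25 and Sqstm1 at -0.22 with the 18 mg/ml extract. In controls 3 were called higher in AECII and 7 lower, with Nr1i3 at 2.57, where the PASMC mean of 3.07 was near background and bounds the size, Ahrr at -0.97, Cebpb at -0.89 and Maff, a partner of NRF2, at -1.46.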

How the data were processed

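Single-colour arrays measured total RNA of the 6 groups. The authors deposited 1 log2 value per feature and array. Of tools, the submitters' processing notes give limma alone, with no version. The deposited arrays share their lowest value (1.52 to 1.53), quartiles and highest value, as quantile normalisation leaves them. Intensities before that step were not used here. Of 62976 features 31465 have a gene name, and names were updated by accession to RefSeq symbols (GRCm38). Each gene is its feature with the highest mean, and a gene was tested if its mean exceeded 2.73, the 30th percentile of named features.

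limma 3.58.1 (R 4.3.3) fitted 1 coefficient per group with eBayes, on 24 arrays of a cell type or on all 48 between cell types, two-sided, with p-values adjusted by Benjamini and Hochberg over all genes tested. Calls are at an adjusted p under 0.05. The procedure was tested on simulated data. Correlations over 24 arrays use deviations from group means, with 100000 permutations within groups. Where a group of 8 was taken alone, the permutation was exact, over all orders. Within the upper and lower PASMC sets the log2 values were used without removing group means. There the 100000 permutations ran over all arrays of the set, across conditions. The number of arrays limits the precision.

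Members were named in full where an unadjusted p was under 0.05 in a comparison of that cell type, and of each list up to 4 called genes or the 2 with the smallest p. Mgst1 in PASMC and Gsta2 in AECII were added after values were seen. The members and lists were chosen with earlier results of these data known. Same-numbered arrays deviated together (r over 0.1) in 5 of 24 pairs in AECII and 9 of 24 in PASMC over all genes tested, and in 2 of 8 between AECII and PASMC controls. Over the 10 members alone they did in 17 of 24 in AECII (median r 0.28, against -0.02 for other numbers) and 8 of 24 in PASMC. Not every pair passed and no label ties the numbers to mice, so the numbers were not taken as pairs.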

Additional observations from a re-analysis of the deposited data

Results flagged for a closer look

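A single array stood apart from the other 7 of its group in 4 of 60 sets (10 genes in 6 groups), with a gap to its nearest neighbour above Dixon's 95% critical value as a share of the group's range, which chance passes in about 1 group in 20. Gsta3 was at 11.51 on AECII array 1 with the 0 mg/ml extract, where the nearest array was at 11.95. Mgst1 was at 10.96 on AECII control array 6, below 11.30. Gsto1 was at 13.20 on PASMC array 4 with the 0 mg/ml extract, below 13.83, and at 13.24 on PASMC control array 3, below 13.94.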

How the results depend on the processing

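The differences between cell types kept their direction for all 10 members under every alternative run, and their counts of called genes stayed within 1.5 times. In AECII no alternative called a gene in any extract comparison. Over 14 alternatives the Gsta1 difference lay at 0.40 to 0.41 for the 0 mg/ml extract and at 0.50 for the 18 mg/ml extract (lowest adjusted p = 0.869 and 0.691), and leaving out each array in turn gave 0.34 to 0.45 and 0.44 to 0.55. With all 48 arrays in the fit, which adds the PASMC spread, its unadjusted p was 0.174 and 0.0949. In 3 results the sign turned when 1 array was left out: Gstm1 in AECII with the 0 mg/ml extract ranged from -0.031 to 0.188 (without extract array 3 or control array 6), Gstt1 with the 18 mg/ml extract from -0.123 to 0.009 (control array 2) and Mgst1 in PASMC between the extracts from -0.277 to 0.0 (array 4 of the 0 mg/ml group). Mgst1 between cell types at 0 mg/ml, the call nearest the threshold, was lost with the replicate block (adjusted p = 0.0587), with no filter (0.0626), with only the groups compared (0.0569), with PASMC arrays of Sftpc at or below 6 (0.164) and when any 1 of 10 arrays was left out. Gstm1 there was gained in 6 settings and Gstp1 at 18 mg/ml in 1.

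Counts of called genes in PASMC for the 18 mg/ml extract and for both extracts pooled (4 and 3) moved as follows, none of the main calls being a member. The replicate block gave 0 and 1, no filter 1 and 1, the 50th percentile filter 8 and 6, array weights 13 and 17, the epithelial covariate 14 and 13, and arrays with Sftpc at or below 6 gave 0 and 0. For the 18 mg/ml extract alone median centring gave 1, only the groups compared 0 and the mean of all features 1, and for both extracts all 48 arrays gave 6. With 1 residual component, added later, the counts were 22 and 20, and with 3 they were 39 and 53. Leaving out each array gave 1 to 4 and 1 to 9. For the 0 mg/ml extract, with 0 called, array weights gave 1, the epithelial covariate 1, 3 components 4, and single arrays left out 0 to 1. Array weights gave 1 for the AECII minus PASMC response to 18 mg/ml. These causes were not tested. The replicate block in AECII called no gene. With it Gsta2 for both extracts had an unadjusted p of 0.000289 (adjusted p = 0.744). An array's closest match in another group carried its own number in 7 of 48 lookups in AECII and 9 of 48 in PASMC, and between AECII and PASMC controls in 8 of 16. Each lookup chose among 8 arrays, 1 of which had the same number. The share between the controls was thus well above that of a random choice, which was not tested. The main fit between cell types took no account of it. Quantile-normalised values show relative, not absolute, levels.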
